A study of Homo sapiens with 11 samples.

Results

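Cell adhesion genes were examined in libraries labelled MDA-MB-231, the name of an established human line usually described as triple-negative breast cancer cells. The set comprised 41 genes of 37247 listed, in 4 classes, with 9 integrin alpha chains, 6 integrin beta chains, 11 other receptors (cadherins, CD44, CD47, ALCAM, L1CAM, NECTIN2, DAG1 and syndecans) and 15 cytoplasmic adaptors of focal adhesions. Members were found by their gene symbol, matched from the unversioned Ensembl identifier. The list was selected on adhesion function with the TPM of these libraries and the fold changes between the same 2 groups known, with no stated threshold, so the fold changes and p-values of its members describe where each gene lay and are no independent evidence about the list. RNA was sequenced from 3 libraries labelled Control-KD, with the genotype WT, and 3 libraries labelled H2AS40-KD, with the genotype given as a knockdown of S40-type H2A, meaning the histone H2A type whose residue 40 is serine. No allele or drug treatment is named for either group, and the labels used here do not give the knockdown reagent or state if each replicate was its own culture, which leaves p-values resting on library-to-library spread that may be technical. The series holds 11 samples, of which 5 from chromatin immunoprecipitation, input included, were not analysed here. Expression is given as TPM, transcripts per 1000000, which divides reads by transcript length and not by genomic length. Levels of different genes can thus be compared, but sequencing depth is unknown.

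Integrins are surface receptors made of an alpha and a beta chain that bind matrix proteins such as fibronectin, collagen and laminin. Inside the cell, talin and kindlin bind the beta chain tail and activate the receptor, and vinculin, filamin and alpha-actinin couple it to actin filaments. Kinases and scaffolds such as PTK2 (focal adhesion kinase), PXN (paxillin) and BCAR1 (p130Cas) pass on signals from these sites, while cadherins and members of the immunoglobulin superfamily join cells to each other. In breast cancer cells of mesenchymal type, CD44 and the integrins that contain ITGB1 are known for their part in attachment and migration.

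The libraries carried markers of both a luminal epithelial and a mesenchymal state. MDA-MB-231 is usually described as negative for oestrogen receptor and E-cadherin, and the identity and purity of the line were not tested. All 7 luminal markers nevertheless passed the filter of at least 1 TPM in at least 3 of 6 libraries. GATA3, a luminal transcription factor, lay between 436 and 471 TPM, EPCAM between 163 and 174 TPM, CDH1 (E-cadherin) between 56.8 and 64.8 TPM and ESR1 (oestrogen receptor) between 12.3 and 21.2 TPM. The mesenchymal markers VIM, AXL and ZEB1 were present in the same libraries, with ZEB1 between 29.0 and 31.9 TPM. The summed luminal markers ran from 6548 to 6594 TPM in Control-KD and from 6453 to 6516 TPM in the libraries labelled H2AS40-KD, without overlap, and the mesenchymal sum ran from 2481 to 2512 TPM and from 2485 to 2506 TPM. KRT8 and KRT18 made up 88.9% to 89.5% of the luminal sum, and each overlapped between groups, as did the sum of the other 5 luminal markers (698 to 715 TPM and 682 to 715 TPM). Single markers lay in both directions, with GATA3 lower without overlap (467 and 448 TPM on average), EPCAM higher without overlap (165 and 170.5 TPM) and ESR1 higher on average with overlap (14.9 and 19.5 TPM). Limma called 0 of these 10 genes, and AXL had an unadjusted p under 0.05 (204 and 192 TPM on average). The part of either marker list in the results below was not tested, and in bulk RNA fewer cells of a type and less RNA per cell cannot be told apart. Blood cell markers (6 genes) summed to 1.93 to 2.96 TPM in Control-KD and 1.27 to 2.31 TPM in the other group, with CD3E listed at 0 in 5 libraries. Endothelial markers (4 genes) summed to 2.16 to 2.63 TPM and 1.78 to 2.59 TPM.

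**Figure D1:**
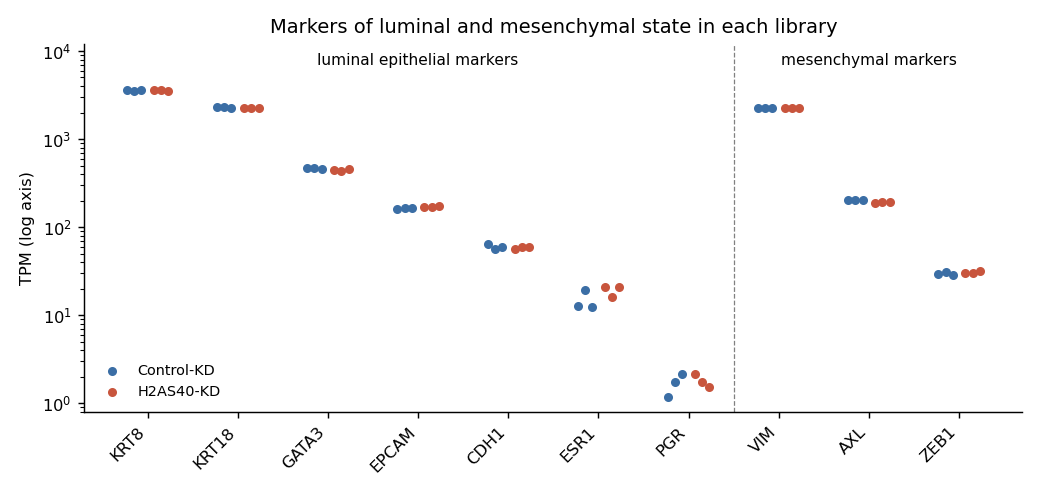
TPM on a log axis of 7 luminal and 3 mesenchymal markers in each of the 6 libraries (points, blue for Control-KD and red for H2AS40-KD). Luminal genes such as GATA3 and CDH1 and mesenchymal genes such as VIM and ZEB1 were present together in every library, and none was called between groups.

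The labelled knockdown was not seen in the TPM of H2AC25, the 1 gene recalled as S40-type that was measurable in every library. H2AC25, taken as S40-type from recollection with no protein sequence to check it, had 32.4, 33.5 and 31.3 TPM in the Control-KD libraries and 33.3, 34.8 and 32.6 TPM in those labelled H2AS40-KD. H2AC7, the other gene recalled as S40-type, was listed at 0 in 3 libraries and cannot decide the question. No further gene of this type was examined, so the knockdown was not tested for the type as a whole. Directions below are therefore between labels. From 14073 to 14120 genes per library reached 1 TPM, and Control-KD replicate 3 stood apart on the first principal component, at -31.2 against -0.784 to 12 for the others.

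Of the 41 genes, 36 passed the filter and were tested, none of them through values in a single group. ITGA4, ITGA10, ITGA11, ITGB8 and CDH2 were below it. With limma over 14160 genes and a Benjamini-Hochberg adjusted p under 0.05 as the call, 7 of the 36 were lower in the libraries labelled H2AS40-KD and 0 were higher, where 1.26% of all tested genes were called, 0.742% lower and 0.516% higher. The 7 were ITGA6, ITGA2, ITGB1, CDH11, L1CAM, ALCAM and FLNA. Surface receptors are encoded by 6 of the 7 and by 21 of the 36 tested members. Because the list was drawn up with this contrast known, nothing is read from the count. An unadjusted p under 0.05 was reached by 15 members, all of them lower, where 16.5% of all tested genes reached it, 7.75% lower and 8.76% higher. Of the 36 fold changes, 30 were negative, and the median on the log2(TPM + 1) scale was -0.13, against 0.011 for all tested genes, of which 46.9% were negative. The groups did not overlap in 16 of the 36, all lower, where 11.3% of all tested genes lay that way and 12.9% the other way. All 7 calls ended when any library other than Control-KD replicate 3 was left out. Limma then called 0 members, and 13 to 15 had an unadjusted p under 0.05. All of these were lower except without Control-KD replicate 1, where 13 of 15 were lower. The 7 calls also ended without limma's intensity trend (0 called, 13 at an unadjusted p under 0.05). Without Control-KD replicate 3, 4 members were called, namely ITGB1, CDH11, FLNA and ACTN4.

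**Figure D2:**
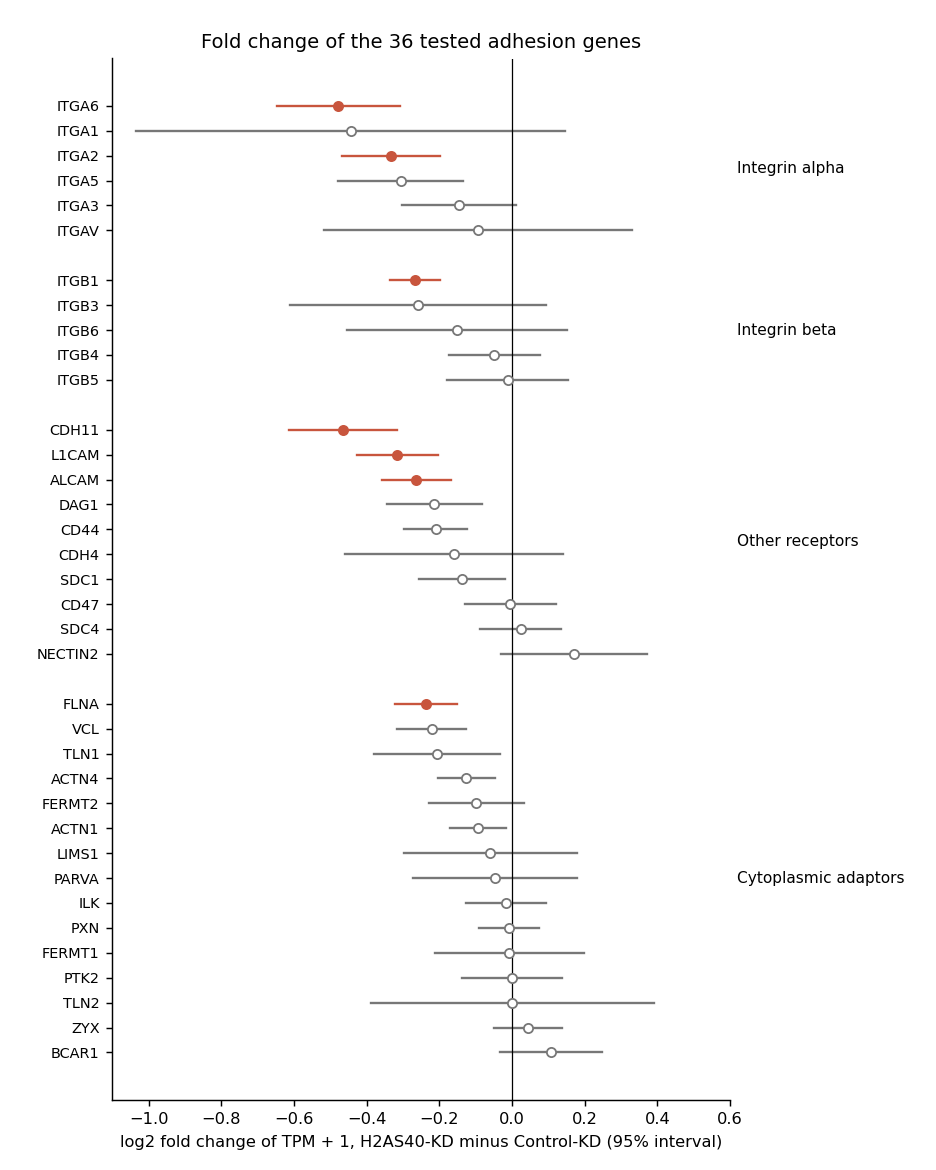
Fold change of each tested member on the log2(TPM + 1) scale, H2AS40-KD minus Control-KD, with limma's 95% interval (n = 3 libraries per group); filled red points were called and open grey points were not. The called genes lie between -0.24 (FLNA) and -0.48 (ITGA6), and most adaptors lie near 0.

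Promoters of 4 of the 7 called members, the integrin chains and FLNA, are shown because these genes were lower in the same libraries. Of the other 3, ALCAM held 1 SP1 box and L1CAM 2, with no match to the other motifs, and CDH11 is named only. The L1CAM window (chrX:153875945-153876194, minus strand) lies inside the gene span given for L1CAM below. Its 2 boxes are therefore not upstream of that span. RefSeq sequence of GRCh38.p14 was at hand for 34 of the 41 members, and the 250 bases before an annotated start were searched on both strands. The motifs were the SP1 box (GGGCGG), the NF-Y box (CCAAT), the TATA box (TATAAA), the TEAD motif (GGAATG), the AP-1 motif (TGANTCA) and the CArG box of serum response factor. Capitals mark every match on either strand.
ITGB1 (chr10:32958231-32958480, minus strand): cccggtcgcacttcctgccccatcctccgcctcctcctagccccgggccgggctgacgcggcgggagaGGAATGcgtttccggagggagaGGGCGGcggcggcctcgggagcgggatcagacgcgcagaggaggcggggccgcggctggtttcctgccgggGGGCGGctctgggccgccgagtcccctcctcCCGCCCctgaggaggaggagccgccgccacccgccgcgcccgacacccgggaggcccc
ITGA2 (chr5:52989102-52989351, plus strand): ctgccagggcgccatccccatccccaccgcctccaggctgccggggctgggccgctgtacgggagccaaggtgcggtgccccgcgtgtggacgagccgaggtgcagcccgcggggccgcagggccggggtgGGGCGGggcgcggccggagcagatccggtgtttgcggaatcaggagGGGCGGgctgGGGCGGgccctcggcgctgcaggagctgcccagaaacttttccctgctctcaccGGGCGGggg
ITGA6 (chr2:172427086-172427335, plus strand): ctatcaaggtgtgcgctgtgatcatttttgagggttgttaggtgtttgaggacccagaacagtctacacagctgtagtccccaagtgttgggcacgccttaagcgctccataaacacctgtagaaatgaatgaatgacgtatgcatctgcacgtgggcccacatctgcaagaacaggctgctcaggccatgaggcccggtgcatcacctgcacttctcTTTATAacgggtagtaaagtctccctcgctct
FLNA (chrX:154374635-154374884, minus strand): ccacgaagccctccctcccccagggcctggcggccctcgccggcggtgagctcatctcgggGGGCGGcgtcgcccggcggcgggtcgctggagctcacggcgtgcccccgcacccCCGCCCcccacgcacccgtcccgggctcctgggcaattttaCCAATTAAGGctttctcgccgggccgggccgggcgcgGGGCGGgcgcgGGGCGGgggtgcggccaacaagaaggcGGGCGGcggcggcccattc
ITGB1, ITGA2 and FLNA held several SP1 boxes each, while ITGA6 held none and had a TATA box on the other strand, 32 to 27 bases before its start. ITGB1 had a TEAD motif 182 to 177 bases before its start, as 1 of 4 members with that motif, and 11.9% of 27305 promoters held one. FLNA had a CArG box 94 to 85 bases before its start that overlaps its NF-Y box, and 1.14% of promoters held a CArG box. An SP1 box was found in 24 of the 34 members (70.6%) and in 42.3% of all promoters, beside a median GC content of 70.8% in the members and 58% in all. An AP-1 motif was found in 2 members (BCAR1 and ACTN4), neither of them called, and in 6.6% of all promoters. Such matches describe letters in these windows and do not show binding.

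Among integrin alpha chains, which set ligand choice, ITGA6 and ITGA2 fell. ITGA6 (ENSG00000091409.14, chromosome 2 from 172427336 to 172506459) pairs with ITGB1 or ITGB4 to bind laminin. It had 62.4, 65.7 and 65.8 TPM in the Control-KD libraries and 46.6, 50.3 and 41.8 TPM in those labelled H2AS40-KD. Every library of the second group lay below every library of the first. ITGA6 fell by 28.5% in mean TPM (mean ± SD of 64.6 ± 1.93 against 46.2 ± 4.29 TPM, n = 3 each), and its log2 fold change was -0.48 (SE 0.072, limma adjusted p = 0.0348). ITGA2 (ENSG00000164171.10, chromosome 5 from 52989352 to 53094779), a collagen receptor chain, had 35, 32.0 and 32.9 TPM in the Control-KD libraries and 25.7, 26.8 and 26 TPM in the other group. The groups again did not overlap, and the spread within the second was narrow. ITGA2 fell by 21.3%, with a log2 fold change of -0.33 (SE 0.057, limma adjusted p = 0.0498), close to the threshold, and its call ended when each library's trend with gene span, the genomic length of a gene, was removed (limma adjusted p = 0.0575).

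ITGA3, a laminin receptor chain, was the most abundant alpha chain and was not called. It had 220, 213 and 192 TPM in the Control-KD libraries and 197, 193 and 175 TPM in those labelled H2AS40-KD, so that Control-KD replicate 3 lay within the range of the second group. Its log2 fold change was -0.15 (SE 0.066, limma adjusted p = 0.339). ITGA5, the main fibronectin receptor chain, had 37.8, 32.7 and 35.6 TPM against 27.8, 30.2 and 27.1 TPM, without overlap, and was not called either (log2 fold change of -0.31, SE 0.073, limma adjusted p = 0.114). In Control-KD the order of levels was ITGA3, ITGA6, ITGA5, ITGA2 and ITGAV, and the ranges of ITGA5 and ITGA2 overlapped. ITGAV, which pairs with several beta chains to bind vitronectin and fibronectin, had 18.2, 15.4 and 25.3 TPM in the Control-KD libraries and 15.5, 20.4 and 18.4 TPM in the other group. Its highest value was Control-KD replicate 3, and its log2 fold change was -0.094 over all libraries, 0.095 without that library and -0.24 without Control-KD replicate 2. ITGA1, a further collagen receptor chain whose gene lies beside ITGA2 on chromosome 5, from 52787916 to 52959209, ranged from 1.33 to 2.98 TPM and from 0.855 to 1.65 TPM (limma adjusted p = 0.433). Its log2 fold change was -0.44 over all libraries and ran from -0.66 (without Control-KD replicate 3) to -0.28 (without Control-KD replicate 2) when 1 library was left out. The chains that were not tested stayed at or below 0.718 TPM (ITGA10), 0.401 TPM (ITGA11) and 0.0493 TPM (ITGA4).

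**Figure D3:**
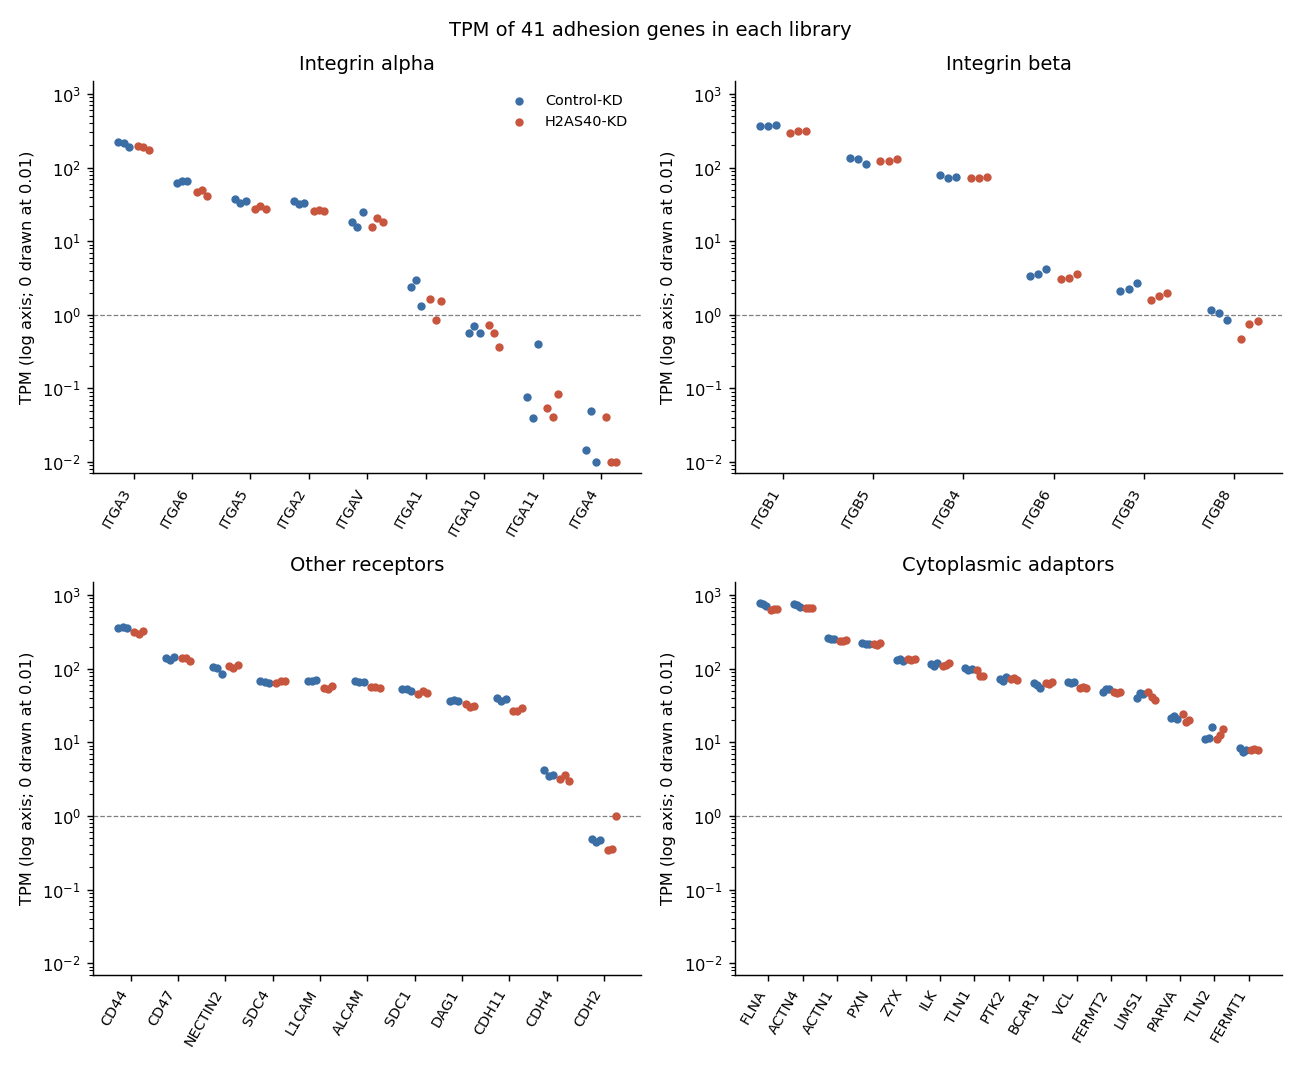
TPM of all 41 members in each library on a log axis (0 drawn at 0.01), by class and in order of mean level, with the filter value of 1 TPM dashed. ITGA3, ITGB1, CD44 and FLNA led their classes, and ITGA4, ITGA10, ITGA11 and CDH2 stayed below 1 TPM in all 6 libraries.

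ITGB1 (ENSG00000150093.18, chromosome 10 from 32900318 to 32958230), the shared partner of most of these alpha chains, was the most abundant beta chain and had the smallest adjusted p of the set. It had 370, 368 and 374 TPM in the Control-KD libraries and 299, 312 and 313 TPM in those labelled H2AS40-KD. The Control-KD values lay close together, and all 3 values of the other group were lower. ITGB1 fell by 16.9% (mean ± SD of 371 ± 2.65 against 308 ± 8.08 TPM, n = 3 each), and its log2 fold change was -0.27 (SE 0.030, limma adjusted p = 0.0163). For the other abundant beta chains the intervals included 0. ITGB5, a partner of ITGAV, had 133, 133 and 113 TPM against 122, 122 and 130 TPM, and its log2 fold change of -0.012 had a 95% interval from -0.18 to 0.15. ITGB4, the hemidesmosome chain that pairs with ITGA6, had 79.6, 71.2 and 75.1 TPM against 71.5, 71.3 and 75.3 TPM, with an interval from -0.17 to 0.076. Neither was called, and the groups overlapped for both. As a share of the summed TPM of the 6 beta chains, ITGB1 took 62.8%, 63.6% and 65.7% in Control-KD and 60.1%, 61.0% and 59.7% in the other group, without overlap. The low chains ITGB3 (2.35 and 1.79 TPM on average) and ITGB6 (3.71 and 3.24 TPM), both partners of ITGAV, were not called. ITGB8, a further partner of ITGAV, had 1.17, 1.06 and 0.853 TPM against 0.472, 0.749 and 0.817 TPM, below the filter.

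All 11 tested integrin chains of the set had a negative fold change, and 8 of these chains were not called. Of all tested genes 46.9% were negative. Because the list was drawn up with these fold changes known, nothing is read from the shared sign. In 16 alternative settings ITGB5 was negative in 11 and ITGAV in 14. Of 5 tested integrin chains outside the set, 4 had a positive fold change, with means of 0.984 to 6.90 TPM over all libraries. ITGB7, 1 of these 4, passed the filter only through the group where it was higher. The most abundant of the 5, ITGAE, was negative. The summed alpha chains came to 377, 363 and 353 TPM in the Control-KD libraries and 315, 322 and 290 TPM in those labelled H2AS40-KD. The summed beta chains came to 590, 579 and 569 TPM and to 497, 511 and 525 TPM. Both sums were lower in every library of the second group, with a mean change of -15.2% and -11.8%, and no test was run on them. The beta sum went from 579 to 511 TPM on average, and ITGB1 alone from 371 to 308 TPM. The ratio of the beta sum to the alpha sum was 1.59 ± 0.0227 in Control-KD and 1.66 ± 0.132 in the other group (SD, n = 3 each), with ranges that overlapped. The median fold changes were -0.32 for the 6 tested alpha chains and -0.15 for the 5 tested beta chains. Both medians stayed negative in all 16 alternative settings. The beta median was -0.049 with a filter of 5 TPM, which leaves out the low chains, and -0.091 without Control-KD replicate 3.

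**Figure D4:**
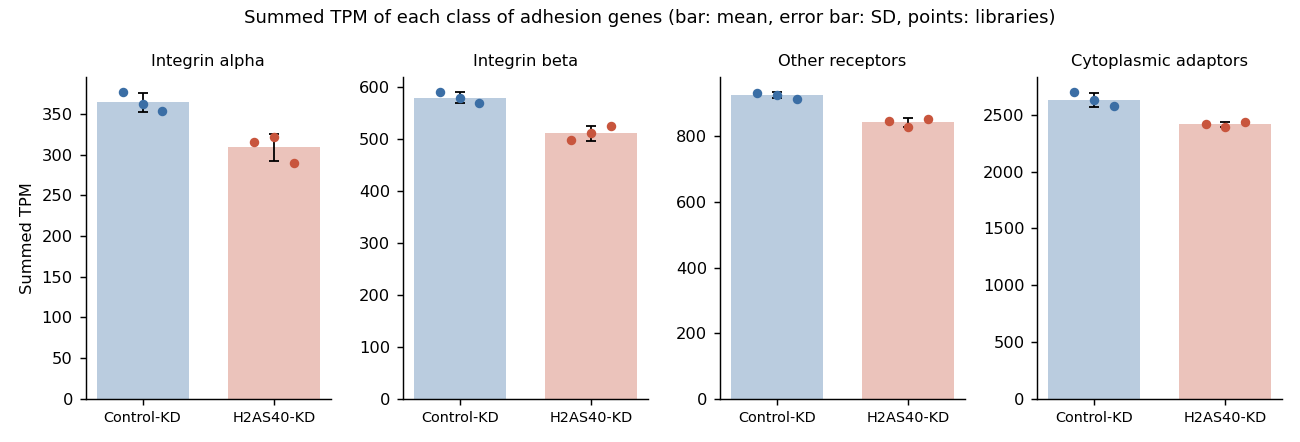
Summed TPM of each class in each library (points), with the mean (bar) and SD (error bar) of 3 libraries per group. Every class sum was lower in all 3 libraries labelled H2AS40-KD, with a mean change from -15.2% for alpha chains to -8.17% for cytoplasmic adaptors. Sums follow their most abundant genes, such as FLNA (754 and 639 TPM on average) and ACTN4 (725 and 664 TPM) among adaptors. The median log2 fold change of the adaptors was -0.046.

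Among the other receptors, CDH11, L1CAM and ALCAM fell. CDH11 (ENSG00000140937.13, chromosome 16 from 64943753 to 65123744), a cadherin of mesenchymal cells, had 39.6, 36.1 and 38.4 TPM in the Control-KD libraries and 26.4, 26.6 and 28.9 TPM in those labelled H2AS40-KD. The gap between the groups was wider than the spread within either, and CDH11 fell by 28.3%, with a log2 fold change of -0.46 (SE 0.063, limma adjusted p = 0.0246). L1CAM (ENSG00000198910.13, chromosome X from 153861514 to 153886173), an immunoglobulin superfamily molecule first known from neurons, had 67.5, 68.2 and 70.2 TPM against 54.4, 52.9 and 57.5 TPM. It fell by 19.9%, with a log2 fold change of -0.32 (SE 0.047, limma adjusted p = 0.0348). ALCAM (ENSG00000170017.12, chromosome 3 from 105366909 to 105576900), another cell adhesion molecule of that superfamily, had 68.7, 66.0 and 66.7 TPM against 56.5, 55.7 and 55.1 TPM. Neither gene's groups overlapped, and ALCAM fell by 16.9%, with a log2 fold change of -0.26 (SE 0.041, limma adjusted p = 0.0366, but 0.0575 with the gene-span trend removed).

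CD44, the hyaluronan receptor and the most abundant of these receptors, lay just past the threshold. It had 353, 365 and 358 TPM in the Control-KD libraries and 313, 296 and 322 TPM in those labelled H2AS40-KD, without overlap. Its log2 fold change was -0.21 (SE 0.037, limma adjusted p = 0.0543), and it was called in 2 of 16 alternative settings, with a filter of 5 TPM (limma adjusted p = 0.0435) and over genes with a known span alone (limma adjusted p = 0.044). DAG1, the dystroglycan receptor for laminin, had 36.7, 37.2 and 36.3 TPM against 33.3, 30.1 and 31.2 TPM and was not called (limma adjusted p = 0.135). The syndecans, proteoglycans that act beside integrins, differed from each other in direction. SDC1 had a log2 fold change of -0.14 (95% interval -0.26 to -0.018) and SDC4 one of 0.024 (-0.088 to 0.13), and neither was called. CD47, an integrin-associated receptor for thrombospondin, had 137 ± 6.35 and 137 ± 7.17 TPM (SD, n = 3 each). NECTIN2, which joins cells at adherens junctions, had 104, 101 and 83.6 TPM against 109, 103 and 113 TPM. Its low value was Control-KD replicate 3, and its log2 fold change was 0.17 over all libraries and ran from 0.073 (without that library) to 0.23 when 1 library was left out. CDH4 (R-cadherin) had 3.75 and 3.25 TPM on average and was not called. CDH2 (N-cadherin) ran from 0.345 to 0.991 TPM and was not tested. The median over the 10 tested receptors of this class was -0.19, with 8 negative.

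**Figure D5:**
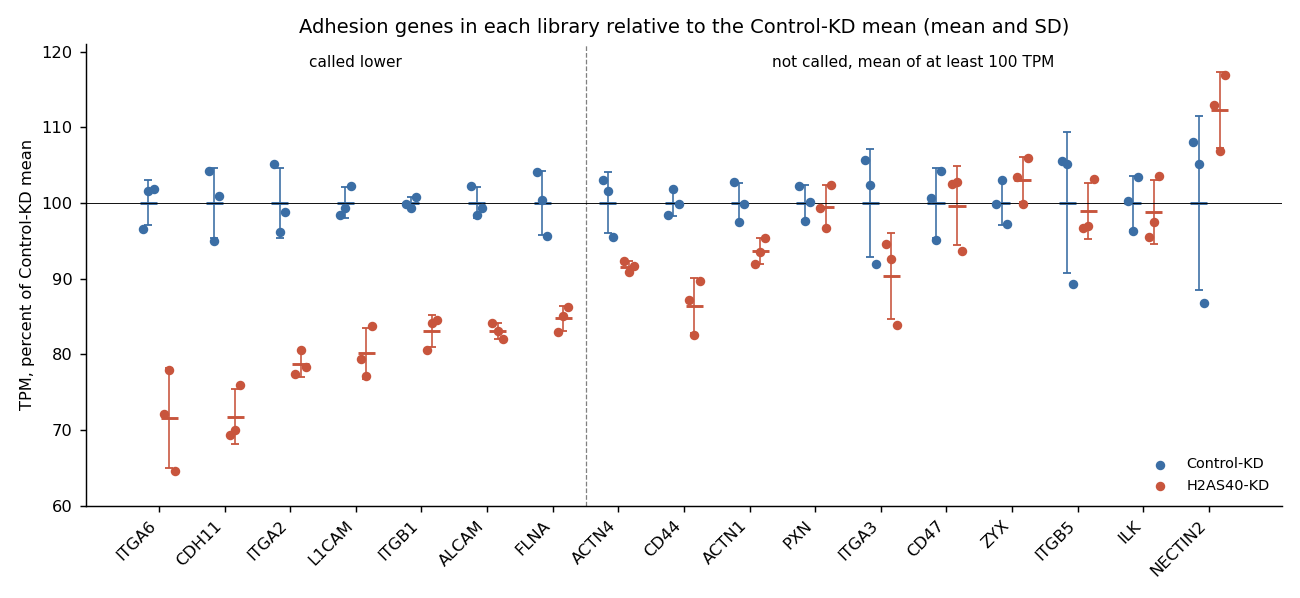
TPM in each library as a percent of the Control-KD mean (points; horizontal marks and error bars give the mean and SD of 3 libraries) for the 7 called members and, to the right of the dashed line, the 10 uncalled members with a mean of at least 100 TPM. The vertical axis starts at 60%. The called genes lie below all Control-KD values, as do the uncalled CD44, ACTN4 and ACTN1. PXN, ZYX, ILK, CD47, ITGA3, ITGB5 and NECTIN2 overlap between groups.

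In the cytoplasmic adaptors, FLNA fell and the other 14 were not called. FLNA (ENSG00000196924.15, chromosome X from 154348531 to 154374634), filamin A, crosslinks actin and binds integrin beta tails, and it was the most abundant member of the whole set. It had 785, 757 and 721 TPM in the Control-KD libraries and 625, 642 and 651 TPM in those labelled H2AS40-KD. The groups did not overlap, and FLNA fell by 15.3%, with a log2 fold change of -0.24 (SE 0.036, limma adjusted p = 0.0353, but 0.0538 under quantile normalization). VCL, vinculin, which strengthens the link from talin to actin, had 65.8, 64.1 and 65.1 TPM against 55.2, 56.7 and 54.9 TPM. Its groups lay well apart, but its log2 fold change of -0.22 (SE 0.040) did not pass (limma adjusted p = 0.058). It was called in 2 of 16 alternative settings, with a filter of 5 TPM (limma adjusted p = 0.049) and under quantile normalization (limma adjusted p = 0.0497). TLN1, talin 1, had 102, 95.7 and 98.0 TPM against 95.7, 80.0 and 80.7 TPM, so that the highest library of the second group equalled the lowest Control-KD value as rounded (limma adjusted p = 0.239).

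The alpha-actinins, which crosslink actin filaments, were lower by small amounts that did not pass. ACTN4 had 747, 736 and 692 TPM in the Control-KD libraries and 669, 659 and 664 TPM in the other group (log2 fold change of -0.13, limma adjusted p = 0.141), and it was called without Control-KD replicate 3 (-0.16, limma adjusted p = 0.0478). ACTN1 had 256 ± 6.72 and 240 ± 4.36 TPM (SD, n = 3 each, limma adjusted p = 0.233). ACTN4 made up 73.9% of the TPM of the pair in Control-KD and 73.5% in the other group. These are similar genes, as are the talins and the kindlins, and reads may have been divided between copies.

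The signalling and scaffold proteins of focal adhesions showed no call. PXN had 224, 214 and 219 TPM in the Control-KD libraries and 217, 212 and 224 TPM in those labelled H2AS40-KD, and the 95% interval of its log2 fold change ran from -0.091 to 0.075. ZYX (zyxin, recruited to tensed actin) had an interval from -0.050 to 0.14. PTK2 had one from -0.14 to 0.14. ILK, the integrin-linked pseudokinase, had one from -0.13 to 0.093. Its complex partners PARVA and LIMS1 (PINCH) had log2 fold changes of -0.046 and -0.060, within the spread between libraries. BCAR1 had 63.1, 60.3 and 54.8 TPM against 63.9, 62.7 and 65.3 TPM, and its log2 fold change was 0.11 over all libraries and ran from 0.050 (without Control-KD replicate 3) to 0.15 when 1 library was left out. The kindlins FERMT1 (7.93 and 7.88 TPM on average) and FERMT2 (51.4 and 47.9 TPM) were not called. TLN2, talin 2, had 11, 11.6 and 16.2 TPM against 11, 12.5 and 15 TPM, with its highest value in Control-KD replicate 3. The class median was -0.046, with 11 of 15 negative, and it ran from -0.082 (without H2AS40-KD replicate 1) to -0.018 (without H2AS40-KD replicate 2) when 1 library was left out. Set against PXN within each library, VCL stood at 0.294, 0.300 and 0.297 of its TPM in Control-KD and 0.254, 0.268 and 0.245 in the other group, without overlap. Such a ratio shows unequal change and not which gene changed.

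Beyond the 41 genes, 102 further adhesion genes were listed in 5 groups, and 86 of them were tested. Of these, limma called 7 lower and 0 higher, beside the same 0.742% lower over all tested genes. These lists were also chosen with earlier results of these data known, so nothing is read from the count. Of the 7 calls CAV1 and FN1 remained without Control-KD replicate 3, and FN1 alone without H2AS40-KD replicate 3. With any other library left out, or without limma's intensity trend, 0 remained. Matrix ligands of integrins and of CD47 held 5 of the 7, among 19 tested of 24, with a median of -0.24 and 15 negative. FN1 (fibronectin) had 29.2, 33.7 and 30.4 TPM in the Control-KD libraries and 16.7, 18.1 and 20.1 TPM in those labelled H2AS40-KD. It is the ligand of the receptor formed by ITGA5 and ITGB1, and its log2 fold change was -0.73 (limma adjusted p = 0.0182). EDIL3 and MFGE8, secreted ligands of ITGAV integrins, had log2 fold changes of -0.66 and -0.36 (limma adjusted p = 0.0496 and 0.0434). LAMB3, a laminin chain (125 to 105 TPM, limma adjusted p = 0.0459), and the matricellular protein CCN2 (100.4 to 81.4 TPM, limma adjusted p = 0.04) were the other calls. THBS1, the thrombospondin that binds CD47, had 89.7 and 73.5 TPM and was not called (limma adjusted p = 0.0927).

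CAV1 and TNS4 were the 2 calls among 29 tested focal adhesion adaptors outside the set. CAV1, caveolin 1, a membrane scaffold that binds integrin complexes, had 143, 149 and 156 TPM in the Control-KD libraries and 117, 108 and 109 TPM in those labelled H2AS40-KD, a log2 fold change of -0.42 (limma adjusted p = 0.0173). TNS4, a tensin that binds beta chain tails, had 12, 10.7 and 11.3 TPM against 6.95, 6.98 and 7.73 TPM, a log2 fold change of -0.59 (limma adjusted p = 0.0352). The median of these 29 was -0.028. Of 22 kinases and small GTPases with their regulators limma called 0, and 4 had an unadjusted p under 0.05, all higher, beside 16.5% of all tested genes in either direction and 8.76% higher. RHOB, a GTPase, had the smallest p (66.0 and 77.9 TPM, limma adjusted p = 0.0966). Of 11 tested cadherins, catenins, nectins and syndecans outside the set limma called 0, and 3 had an unadjusted p under 0.05, all lower, beside 7.75% lower over all tested genes. SDC2 had the smallest p (19.3 and 14.4 TPM, limma adjusted p = 0.265). Of 5 tested further integrin chains limma called 0. Fold changes were positive in 4 and negative in 1, with a median of 0.22. The 4 positive chains were low, with means over all libraries of 0.984 TPM (ITGAD), 1.35 TPM (ITGA2B), 1.59 TPM (ITGB7) and 6.90 TPM (ITGB2). ITGAE, the negative one, was the most abundant of the 5, with 51.8 and 46.7 TPM on average, without overlap. Its log2 fold change was -0.15 (limma adjusted p = 0.392). An unadjusted p under 0.05 was reached by 1 of the 5, beside 16.5% of all tested genes. That was ITGB7, with 0.614, 0.741 and 0.600 TPM against 1.43, 1.37 and 4.78 TPM, where 1 library carried most of the difference (limma adjusted p = 0.246). ITGB7 reached 1 TPM only in the libraries labelled H2AS40-KD, so the filter admitted it through the group where it was higher. Nothing is read from its p-value or its sign.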

How the data were processed

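RNA was sequenced in 6 libraries, and groups and replicate numbers were taken from the sample titles. The authors deposited TPM per gene, and each library summed to 1000000. The tool behind the TPM, messenger RNA selection and strand are not given in the sources used here. hg38, Bowtie2 and MACS2 are named with no role, per the submitters' processing notes. Of 37247 identifiers 34436 were matched to symbols. Coordinates and promoters are from RefSeq on GRCh38.p14, matched by symbol.

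The 14160 genes that reached 1 TPM in 3 or more libraries were analysed as log2(TPM + 1) with limma 3.58.1 in R 4.3.3. Its moderated test was two-sided with a trend on intensity, and p-values were adjusted by Benjamini-Hochberg across these genes, with calls at 0.05. Fold changes on this scale understate those of low genes. Members, gene lists, settings and rules were chosen with earlier results of these data known. All members are named, with values per library for those called, those most abundant or with the largest fold change in their class, and further ones picked after their values were seen. From each other list up to 5 called genes, or the one with the smallest p, were named; THBS1 was added after its values were seen. No pair of libraries shared identical TPM in more than 0.113% of these genes. The fit was tested on simulated data and missed most of the smallest changes put in, so a gene that was not called may still differ. Alternatives are given in the closing section.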

Additional observations from a re-analysis of the deposited data

How the results depend on the processing

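TPM keep no depth, so counting error could not be given. Over all genes limma called 178 (73 higher and 105 lower), and 98 with no filter on low values, 10 without an intensity trend and 5 to 156 when 1 library was left out. With a gene-span trend removed 42 were higher and 100 lower, and 82 and 123 among the same 13100 genes with it kept. The 7 member calls became 3 with no filter (ALCAM, CDH11 and ITGB1), 9 with a filter of 5 TPM, 5 with the gene-span trend removed (without ALCAM and ITGA2, and against 8 among the same 13100 genes with it kept), 0 without the intensity trend and 0 to 4 when 1 library was left out. In the same order the 7 calls among other adhesion genes became 2, 7, 6, 0 and 0 to 2. The cause of these changes was not tested. Only for the gene-span setting were the same 13100 genes also fitted with the trend kept, which holds the number of genes equal. All 7 called members kept a negative fold change and an unadjusted p under 0.05 in all 16 settings. Since their groups do not overlap, leaving out a library could not have changed the sign. Deviations of same-numbered libraries from their group means correlated at -0.0101, -0.0642 and -0.00154. The sample titles do not say if such libraries were paired, and these values cannot settle it. With the replicate block limma called 0 genes (2032 at an unadjusted p under 0.05), 0 members (14 at an unadjusted p under 0.05) and 0 other adhesion genes. The class median of other receptors was -0.21 with a pseudocount of 0.1 and -0.21 with a filter of 5 TPM, and that of beta chains was -0.049 with that filter. When 1 library was left out it ran from -0.082 to -0.018 for adaptors, -0.21 to -0.091 for beta chains, -0.32 to -0.28 for alpha chains and -0.20 to -0.17 for other receptors. In at least 1 setting the sign changed for ITGAV, ITGB5, CD47, TLN2, PXN, PTK2, ILK, PARVA, LIMS1 and FERMT1, none of them called. CD44, VCL and ACTN4 each gained a call in 1 or 2 settings, while lower.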
